A study of Homo sapiens with 20 samples.

Results

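SUM149 is an established cell line from an inflammatory triple-negative breast cancer, and its response to wound-healing fluid is described here across genes and pathways. The arrays were chosen by the cell line on their labels, which gave 4 of the 20 arrays of the series, namely 2 stimulated and 2 un-stimulated cultures, each labelled replicate A or B. Of the 47319 probes on the array, 20702 passed the detection limit, a detection p under 0.05, on both arrays of at least 1 side, and 15735 of them carried 1 gene symbol, for 11627 genes. The study put 5 triple-negative breast cancer lines through the same treatment to look for surface molecules that such a fluid raises. All SUM149 cultures, untreated ones included, were grown in medium with insulin and serum and then starved of serum for 24 h. WHF-treated cultures then received pooled wound-healing fluid (WHF), the fluid drained from the breast after surgery, at 5% of the medium for 48 h, and untreated cultures did not. Fluids of several patients were pooled for each experiment, and whether replicates A and B received the same pool is not given in the sources used here. The methods describe an independent preparation of the cells as a second set. SUM149 is 1 line grown without other cell types, so p-values do not measure the spread between tumors. They rest on a spread between replicate cultures that was pooled over the 5 lines, and not on SUM149 cultures alone.

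Wound fluid is rich in growth factors, cytokines, serum proteins, lipids and hormones that reach epithelial cells when a tissue is cut. A basal-like epithelial cell can answer such a mixture by entering the cell cycle, by changing the secreted factors it makes, or by moving along the squamous path, in which cornified envelope proteins, keratins and serine protease inhibitors are made. Retinoids and ligands of the aryl hydrocarbon receptor (AhR), a sensor of flat aromatic molecules, act through receptors that bind DNA and induce the enzymes that carry and break down the ligand. Lipids taken up from the medium lower the cell's own synthesis of cholesterol and fatty acids through the SREBP factors.

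The label was checked against marker genes. The epithelial adhesion genes CDH1, CDH3 and EPCAM and the basal genes KRT5, KRT14 and EGFR were each detected on 4 of 4 arrays, although KRT14 was low, at 5.90 to 8.50 on the log2 scale. Luminal genes were present as well. Of 6 on the array, KRT8, KRT18, KRT19, GATA3 and FOXA1 were detected on 4 arrays and ELF5 on 0. KRT19, at 12.57 to 13.08, lay above KRT5, at 10.74 to 11.65. PGR, the progesterone receptor gene, was detected on 0 arrays, whereas ESR1 and ERBB2 each had a probe detected on 4 arrays. Of 10 leukocyte genes on the array, 6 were detected on 0 arrays, PTPRC, CD3D and TYROBP among them. CD68 and CSF1R were detected on 4 arrays, and ITGAM and MS4A1 on 3. The summed leukocyte signal was 13.40 to 13.75 in untreated and 13.70 to 13.81 in WHF-treated cultures, most of it from CD68. Of 4 red cell genes, HBB and HBA1 were detected on 0 arrays, ALAS2 on 2 and HBA2 on 4. The summed signal was 8.19 to 8.32 in untreated and 8.56 to 8.99 in treated cultures. In it, the HBA2 probe detected on 4 arrays went from 6.52 and 6.11 to 7.32 and 7.91. Of 4 endothelial genes, CDH5 and KDR were detected on 0 arrays, VWF on 1 and PECAM1 on 4. The summed signal was 7.59 to 7.87 in untreated and 7.26 to 7.40 in WHF-treated cultures. Of 6 fibroblast genes, DCN, COL1A1 and LUM were detected on 4 arrays and PDGFRB on 0, with a summed signal of 11.82 to 12.61 in untreated and 12.13 to 13.16 in WHF-treated cultures. Of 4 adipocyte genes, ADIPOQ and PLIN1 were detected on 0 arrays, and the summed signal, from FABP4 and LEP, was 10.36 to 10.89 and 11.12 to 11.33. The part of carried-over RNA in the results was not tested.

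Between 19693 and 21570 probes were detected per SUM149 array, the fewest on WHF-treated replicate B, and this array stood apart from its partner. The median gap between the replicate arrays of a group, over kept probes, was 0.295 on the log2 scale for the WHF-treated SUM149 cultures, the highest of the 10 groups of the series, and 0.179 for the untreated ones. Over kept probes, the response of replicate B (WHF-treated minus untreated, log2) had a standard deviation of 0.83 against 0.66 in replicate A, and the responses of A and B correlated at r = 0.72 across probes, which are not independent replicates. Groups of short or unstable transcripts, picked out after their values were seen, moved with that array. Of 66 probes for SNORD genes, small nucleolar RNAs that mostly guide methylation of ribosomal RNA, 19 were called higher. Over all 17098 kept probes detected on 4 arrays, 759 were called higher. The SNORD median response was 0.17 in replicate A and 1.16 in replicate B. Of 52 probes for SNORA genes, which mostly guide pseudouridylation, 9 were called higher, with medians of 0.10 and 1.0. Without WHF-treated replicate B, 2 and 3 of these probes were called. FOS, FOSB and EGR1, immediate early genes with short-lived mRNA, are described with the ERK genes for the same reason. The part of RNA quality in these values was not tested, and results that rest on this array are given with and without it.

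After treatment, 1067 probes rose and 1538 fell, which is 5.15% and 7.43% of the 20702 probes tested (limma, false discovery rate 0.1 and more than 2-fold). A gene that missed either limit is written below as not having passed. Of these 2605 probes, 2603 moved in the same direction in replicates A and B. That count was nearly fixed in advance, because a call needs a mean response of A and B over 2-fold. Changes of more than 2-fold in both replicates were found for 1514. Another 835 passed 2-fold in replicate B alone and 256 in replicate A alone, and of the 835 there were 566 called lower. When arrays were scaled to a common median in place of quantile normalization, 679 probes rose and 1887 fell, and the median of all probes lay at −0.12 on the log2 scale. Among 10114 genes detected on all 4 arrays, with the probe of the highest mean taken for each gene, 423 rose (4.18%) and 596 fell (5.89%), and the median log2 fold-change was −0.00. These values are the background against which the gene lists below are read. In bulk RNA, a smaller share of cells that make a transcript and less of it per cell cannot be told apart.

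**Figure D1:**
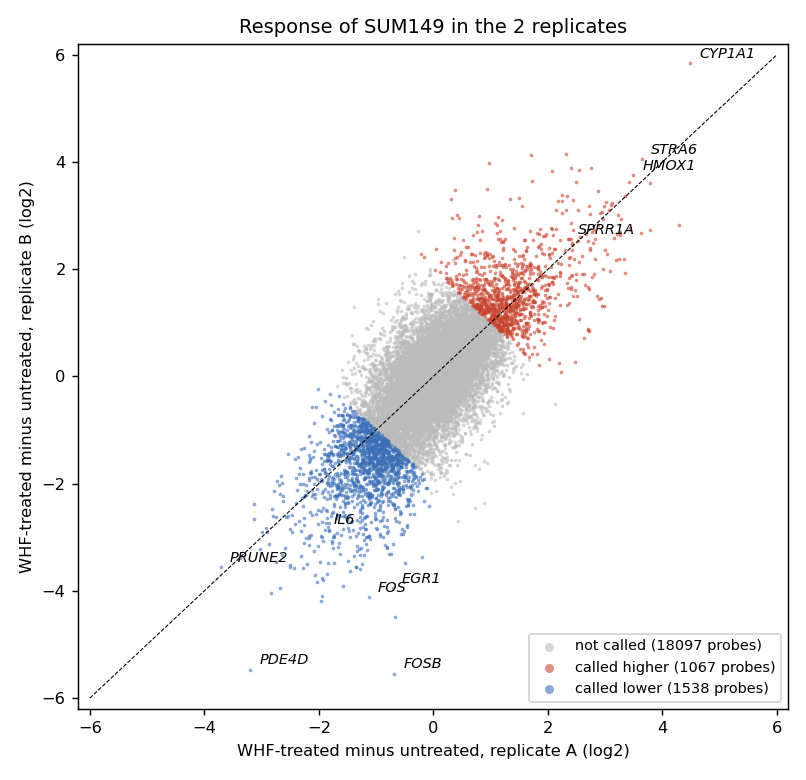
Each point is 1 of the 20702 kept probes, with the response (WHF-treated minus untreated, log2) of replicate A on the x axis and of replicate B on the y axis, and the dashed line marks equal responses. Points called higher are red and points called lower are blue, and FOS, FOSB and EGR1 lie far below the line because their fall was mainly in replicate B.

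STRA6, CRABP2 and DHRS3, genes that take up, carry and convert retinoids, rose in SUM149, while the receptor gene RARA fell. STRA6, the membrane receptor that takes up retinol, gave log2 signals of 6.77 and 6.56 in untreated cultures A and B and of 10.42 and 10.62 in WHF-treated cultures A and B. Both treated arrays lay above both untreated ones by more than 3 log2 units, a fold-change of 14.4 (log2 3.85, standard error 0.36, adjusted p = 3.47e-06 from limma). CRABP2, which carries retinoic acid to its nuclear receptor, went from 6.75 and 7.80 to 10.18 and 10.57 (log2 fold-change 3.10, adjusted p = 3.68e-06). DHRS3, a retinaldehyde reductase induced by retinoic acid, went from 7.86 and 8.29 to 11.13 and 11.23 (log2 fold-change 3.10, adjusted p = 1.60e-05). The groups did not overlap for any of these genes, and the responses of A and B differed by less than 1 log2 unit. These genes were named for their large called changes, so such separation was nearly fixed in advance, here and for called genes below. Named after their values were seen, ALDH1A3, which makes retinoic acid, rose by 1.45 and 1.62 on its 2 probes, the first of which gave 0.84 and did not pass without WHF-treated replicate A, and RARRES1, a retinoic acid receptor responder, by 1.54 to 2.66 on 3 probes. RARA, the gene of a retinoic acid receptor, fell by 2.47, with 1 of the treated arrays below background, and by 1.58 without WHF-treated replicate B.

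CYP1A1 and TIPARP, targets of the AhR, rose as well. CYP1A1, the monooxygenase that marks AhR activity, was not above background in untreated cultures, where its signals were 4.93 and 5.20, and reached 9.41 and 11.04 in treated ones. This was at least 24.0-fold higher, where the bound compares the mean of the treated arrays with the lowest signal of detected probes on each untreated array (adjusted p = 8.63e-07). The bound was 13.6-fold without WHF-treated replicate B. TIPARP, an ADP-ribosyltransferase that dampens the AhR, went from 9.68 and 9.69 to 12.23 and 12.28, so that the replicate arrays agreed within 0.1 (log2 fold-change 2.57, adjusted p = 1.17e-06). CYP1B1, a related monooxygenase, gave 0.75 and did not pass the test. Of 15 members of the retinoid, aldehyde dehydrogenase and AhR list detected on 4 arrays, 6 rose and none fell, and their median log2 fold-change was 0.75. It was 0.97 in the A pair against 0.44 in the B pair, and 5 members rose without WHF-treated replicate A. RARA and CYP1A1 were detected on fewer arrays and stand outside this count.

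**Figure D2:**
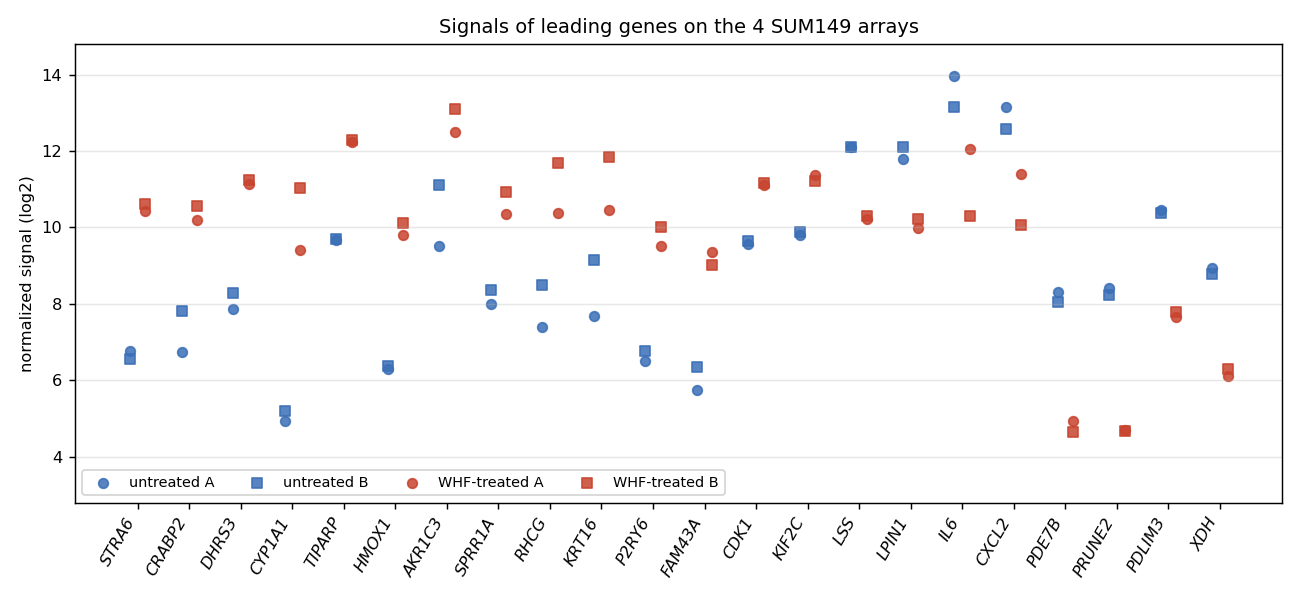
Normalized log2 signals (y axis) of 22 genes on the 4 SUM149 arrays, blue for untreated and red for WHF-treated cultures, circles for replicate A and squares for replicate B. In each gene both red points lie on the same side of both blue points. The genes were drawn for their called changes, so this separation was nearly fixed in advance. The untreated signals of CYP1A1 and the treated signals of PDE7B and PRUNE2 were not above background.

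SPRR genes and RHCG, of the squamous list, rose. SPRR1A, a small proline-rich precursor of the cornified envelope, went from 7.99 and 8.36 to 10.35 and 10.92 (log2 fold-change 2.46, standard error 0.23, adjusted p = 4.31e-06). RHCG, an ammonium transporter of squamous epithelia, went from 7.39 and 8.50 to 10.37 and 11.67, so replicate arrays differed by more than 1 log2 unit while their groups stayed apart (log2 fold-change 3.08, adjusted p = 2.18e-05, and 2.43 without WHF-treated replicate B). KRT16, a keratin of wounded and activated epidermis from the keratin list, showed the same gap between replicates, from 7.68 and 9.15 to 10.44 and 11.85 (log2 fold-change 2.73, adjusted p = 0.000258, and 2.03 without WHF-treated replicate B), and its probe of higher signal gave 0.87 and did not pass. SPRR2E rose by 1.76 and 1.37 on its probes and SPRR2C, detected only in treated cultures, was at least 3.28-fold higher. A2ML1, a protease inhibitor of the upper epidermis, and SPINK7, a serine protease inhibitor of squamous mucosa, were detected only in treated cultures and were at least 5.41-fold and 5.92-fold higher. In both, treated replicate B lay more than 2 log2 units above treated replicate A, and without replicate B the bounds were 2.63-fold and 2.78-fold.

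Of 12 squamous genes detected on 4 arrays, 7 rose and none fell, with a median of 1.56 (1.27 in replicate A and 1.54 in replicate B). With only probes detected on at least 10 of the 20 arrays of the series, 2 rose and the median was 0.43. The 7 were RHCG and 6 SPRR genes, close relatives in sequence whose probes may share signal, so they are not separate measurements with certainty. Another 6 were detected on fewer arrays, and 3 of them were called higher, against 123 of 1513 such genes over all. Their direction was in part set by the filter. TGM1, the transglutaminase that cross-links the envelope, gave 0.47, CNFN −0.04 and KLK6 −0.06, and none of these passed. TGM2, a transglutaminase induced by retinoic acid, had probes that disagreed, since 1 rose by 2.24 (adjusted p = 3.97e-06) and the others gave 0.76 and 0.03. ELF3, an epithelial ETS factor that acts on squamous genes, went from 9.18 and 8.82 to 11.70 and 11.93 (log2 fold-change 2.81, adjusted p = 7.97e-06). GRHL1, a grainyhead factor of the epidermal barrier, was at least 2.23-fold higher on 1 probe and rose on the others. Among other keratins, KRT15, of basal epithelial cells, went from 5.71 and 5.30, with 1 untreated array below background, to 7.79 and 7.93 (log2 fold-change 2.36, adjusted p = 6.15e-06). KRT14 gave 0.72, KRT5 −0.47, KRT19 0.07 and KRT18 −0.46 on the brighter of its probes, and none of these passed. The dimmer KRT18 probe went the other way, from 6.23 and 6.31 to 6.83 and 7.23. KRT14 went from 6.33 and 6.62 to 5.90 and 8.50, so its replicates moved in opposite directions. Of 29 genes of the keratin, junction and epithelial regulator list detected on 4 arrays, 2 rose and 1 fell. On fewer arrays 3 were detected, and these 3 rose, KRT15 among them, against 123 of 1513 such genes over all. Their direction too was in part set by the filter.

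HMOX1, which encodes the heme-degrading enzyme heme oxygenase 1, went from 6.30 and 6.37 in untreated to 9.79 and 10.12 in WHF-treated cultures. The untreated arrays agreed within 0.1 and the treated ones within 0.4, and the fold-change was 12.3 (log2 3.62, standard error 0.31, adjusted p = 1.52e-06). HMOX1 is a target of the oxidant-responsive factor NRF2, but the NRF2 list as a whole stayed near 0. Of its 26 genes detected on 4 arrays, HMOX1, AKR1C2 and AKR1C3 rose, none fell, and the median was 0.05. The AKR1C genes are near-identical in sequence, so their probes may not tell them apart. AKR1C3, an aldo-keto reductase of steroids and prostaglandins, went from 9.52 and 11.10 to 12.49 and 13.10 (log2 fold-change 2.48, adjusted p = 0.000195). NQO1 gave −0.11, GCLM 0.63, GCLC −0.93, SRXN1 −0.62 and TXNRD1 0.47, and none of these passed.

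P2RY6 and P2RY2, receptors for extracellular nucleotides, rose, and P2RY11 fell. P2RY6, the UDP receptor, went from 6.50 and 6.77 to 9.52 and 10.02 on 1 probe (log2 fold-change 3.13, standard error 0.32, adjusted p = 6.28e-06), and a dimmer probe gave 1.03 (adjusted p = 0.000984), which without untreated replicate A was 0.93 and did not pass. P2RY2, the receptor for ATP and UTP, went from 4.90 and 5.65, with 1 untreated array below background, to 8.02 and 8.89 (log2 fold-change 3.18, adjusted p = 3.16e-06). P2RY11, another ATP receptor, which couples to cyclic AMP, fell from 7.97 and 7.98 to 6.43 and 5.92 (log2 fold-change −1.80, adjusted p = 4.39e-06). The 3 receptors thus split by direction, with replicates within 1 log2 unit of each other. ADA, which breaks down adenosine, rose by 1.25. Of 14 members of the list detected on 4 arrays, 4 rose and 1 fell, and the median was 0.19.

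PDE4D, PDE4B and PDE7B, which encode phosphodiesterases of cyclic AMP, fell. PDE4D gave 10.82 and 10.55 in untreated cultures and 7.62 and 5.08 in treated ones, the last below background (log2 fold-change −4.33, standard error 0.50, adjusted p = 1.86e-05). Both replicates fell by more than 3 log2 units, and without WHF-treated replicate B the value was −3.07. PDE7B went from 8.32 and 8.04 to 4.94 and 4.66, not above background on either treated array, and was at least 5.27-fold lower (adjusted p = 4.39e-06). PDE4B, named after its values were seen, fell by 1.96 on its brighter probe, and by 1.04 without WHF-treated replicate B. CREB5, a cyclic AMP response element binding factor, was at least 3.20-fold lower, whereas GNAI3, an inhibitory G protein subunit of adenylate cyclase, rose by 1.47 (adjusted p = 5.95e-06). Of 18 list members detected on 4 arrays, 2 rose and 2 fell, near the background of all genes. On fewer arrays 7 were detected and 4 of them fell, against 388 of 1513 such genes over all, a direction in part set by the filter.

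Other genes with large rises had varied roles. FAM43A, a gene of little known function, went from 5.75 and 6.34 to 9.36 and 9.01 (log2 fold-change 3.14, adjusted p = 3.41e-07). FBXO32, the muscle atrophy ubiquitin ligase atrogin-1, went from 8.44 and 8.43 to 11.67 and 11.45, so its replicates agreed within 0.3 (log2 fold-change 3.12, adjusted p = 6.34e-08). NFE2, a leucine zipper factor best known from blood cells, rose by 2.95, MB, which encodes myoglobin, by 2.95, CD14, a co-receptor for bacterial lipopolysaccharide, by 2.87, and GPRC5A, an orphan receptor first found as retinoic acid induced, by 2.84. FGR, a SRC family kinase, was at least 7.80-fold higher on a probe detected only in treated cultures, and BCL2L11, the cell death promoter BIM, at least 5.16-fold on such a probe, with its other probes up by 3.01 and 1.90. The BCL2L11 bound was 3.07-fold without WHF-treated replicate B. PTGES, the terminal synthase of prostaglandin E2, went from 10.46 and 10.80 to 13.25 and 13.29 (log2 fold-change 2.64, adjusted p = 0.000125), whereas PTGS2, the cyclooxygenase before it in the pathway, fell from 12.53 and 12.01 to 10.82 and 9.77 (log2 fold-change −1.97, adjusted p = 0.00309).

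A part of the mitotic genes rose in treated cultures. CDK1, the mitotic kinase, gave 9.58 and 9.66 in untreated and 11.11 and 11.16 in WHF-treated cultures, and the replicates agreed within 0.1 (log2 fold-change 1.52, standard error 0.19, adjusted p = 4.50e-05), while its brighter probe, used for the list, rose by 1.27. KIF2C, a kinesin that removes tubulin from spindle ends, went from 9.81 and 9.89 to 11.37 and 11.21 (log2 fold-change 1.44, adjusted p = 1.35e-05). NEK2, a kinase of centrosome splitting, rose by 1.54 and BUB1, of the spindle checkpoint, by 1.27. Of 39 genes of the G2/M list, all detected on 4 arrays, 12 rose and none fell, 34 had a positive value, and the median was 0.81. It was 0.99 in the A pair against 0.52 in the B pair, and 14 rose without WHF-treated replicate B, but without WHF-treated replicate A 5 rose and 1 fell. MKI67, the proliferation antigen Ki-67, went from 7.68 and 7.75 to 7.59 and 7.43 and did not pass (log2 fold-change −0.20, adjusted p = 0.681). Of 30 genes of G1/S and DNA replication none was called, at a median of 0.22, with TYMS at 0.82, RRM2 at 0.48 and MCM3 at −0.35. Named after their values were seen, FOXM1, a transcription factor of mitotic genes, gave 0.52 and ASPM −0.75, and neither passed.

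Promoters of the mitotic genes carry short elements that are known to time their expression, the CHR, with the letters TTTGAA or TTTAAA, and the CCAAT box. In the 300 bases that span the start of each gene in RefSeq (GRCh38.p14), 27 of 33 list members with a promoter in the table held a CHR on either strand (81.8%), against 24.0% of 35116 promoters, and 25 held CCAAT (75.8%), against 34.6%. Of 11 called members with a promoter, 7 held a CHR and 9 held CCAAT, so the CHR was not more frequent in called members than in the list. Stretches of 90 bases upstream of the start are shown for 5 called members. These have the highest log2 fold-changes among called members with a CHR before the start. Capitals mark the CHR and the CCAAT box on either strand, so TTCAAA and ATTGG are their reverse forms.
CDK1 (chr10:60778143-60778232, plus strand): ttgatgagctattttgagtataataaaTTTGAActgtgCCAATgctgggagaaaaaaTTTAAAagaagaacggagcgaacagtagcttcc
TOP2A (chr17:40418015-40418104, minus strand): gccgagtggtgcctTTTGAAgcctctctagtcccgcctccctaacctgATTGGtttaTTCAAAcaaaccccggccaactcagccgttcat
DLGAP5 (chr14:55191662-55191751, minus strand): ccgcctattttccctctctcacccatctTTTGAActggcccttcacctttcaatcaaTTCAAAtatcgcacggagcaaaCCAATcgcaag
CDC20 (chr1:43358859-43358948, plus strand): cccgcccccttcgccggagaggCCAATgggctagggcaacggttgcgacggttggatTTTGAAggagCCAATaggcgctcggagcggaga
PLK1 (chr16:23678799-23678888, plus strand): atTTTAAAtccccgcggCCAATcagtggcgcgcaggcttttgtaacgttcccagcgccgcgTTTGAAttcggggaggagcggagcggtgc
The matches are letters in a window and not tested sites, and members that did not pass held them too. TOP2A, which encodes the topoisomerase that untangles mitotic DNA, rose by 1.17, DLGAP5, a spindle protein, by 1.14 on 1 probe while the other gave −0.37, CDC20, an activator of the anaphase ubiquitin ligase, by 1.08, and PLK1, the polo-like kinase, by 1.02. None of these 4 passed without WHF-treated replicate A, where TOP2A, DLGAP5, CDC20 and PLK1 gave 1.0, 0.89, 0.88 and 0.78. The antioxidant element TGACNNNGC was held by 6 of 21 NRF2 list promoters (28.6%) against 13.3% of all. It was held by 0 of the 2 called NRF2 members with a promoter. The sterol element TCACNCCAC was held by 0 of 15 cholesterol synthesis promoters against 1.13% of all. For fatty acid and glycerolipid synthesis it was 0 of 13.

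Some brakes of the cell cycle rose. CDKN2D, the inhibitor p19 of the G1 kinases, went from 9.19 and 9.42 to 11.27 and 11.27 (log2 fold-change 1.96, standard error 0.18, adjusted p = 3.68e-06). GADD45A and GADD45B, stress-induced growth arrest genes, rose by 1.73 and 1.43, and CCNG2, an atypical cyclin, by 1.04 on the dimmest of 3 probes. The other CCNG2 probes gave 0.92 and 0.80 and did not pass, and the called one gave 0.82 without WHF-treated or untreated replicate B and did not pass. Of 21 genes of the brake and p53 list detected on 4 arrays, 4 rose and none fell, and the median was 0.16.

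Genes of lipid synthesis fell in part. LSS, the lanosterol synthase, gave 12.11 and 12.10 in untreated and 10.22 and 10.30 in treated cultures, and ACAT2, which makes acetoacetyl-CoA for the sterol pathway, went from 13.07 and 13.26 to 11.17 and 11.47. The replicates of both genes agreed within 0.4, and the log2 fold-changes were −1.84 (adjusted p = 1.26e-05) and −1.85 (adjusted p = 2.96e-06). DHCR7, the last reductase of the pathway, fell by 1.42 and 1.29 on its probes. Of 17 genes of cholesterol synthesis detected on 4 arrays, 5 fell and none rose, 16 had a negative value, and the median was −0.92. Without WHF-treated replicate B, 10 fell, and on the bead signals with no background correction 3 fell. INSIG1, which holds the SREBP factors in the endoplasmic reticulum and is itself their target, fell by 1.67 on 1 probe and gave −0.55 on the other, while ABCG1, a sterol exporter, rose by 1.35 on 1 of 3 probes. Both belong to the list of cholesterol uptake and SREBP control. Of its 12 genes detected on 4 arrays, with the brightest probe of each, none was called, and the median was −0.04. In fatty acid and glycerolipid synthesis, 6 of 16 fell and none rose, at a median of −0.93, with LPIN1, a phosphatidate phosphatase, at −1.85, FADS2, a fatty acid desaturase, at −1.88 and ACACA, the carboxylase of the committed step, at −1.28. Without WHF-treated replicate B, 9 fell.

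**Figure D3:**
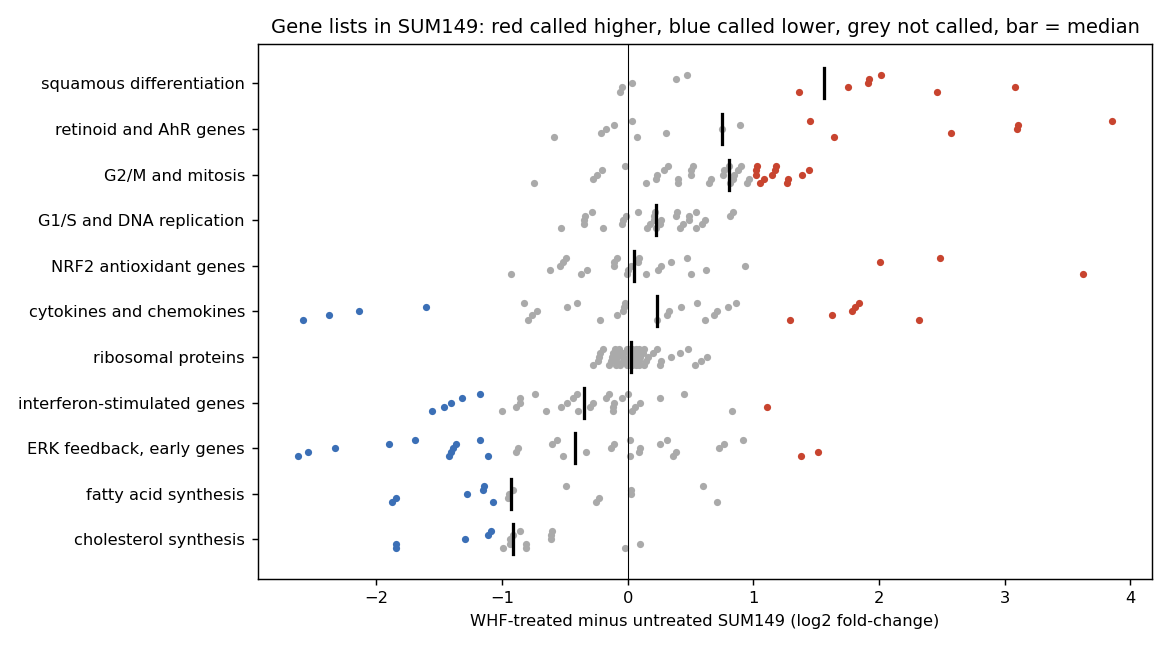
Each point is 1 gene detected on 4 arrays, placed by its log2 fold-change (x axis) in the row of its list, red if called higher, blue if called lower and grey if neither, and the black bar is the list's median. The squamous, retinoid and mitotic rows have medians to the right of 0 and no blue point, and the 2 lipid synthesis rows have medians to the left of 0 and no red point.

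Secreted factors of inflammation split into genes that rose and genes that fell. IL6, the acute phase cytokine, gave 13.96 and 13.15 in untreated cultures and 12.06 and 10.29 in treated ones, so the treated arrays lay apart from each other but below both untreated arrays (log2 fold-change −2.38, standard error 0.45, adjusted p = 0.00119). CXCL2, a neutrophil chemokine, went from 13.14 and 12.58 to 11.40 and 10.05 (log2 fold-change −2.14, adjusted p = 0.00127). Without WHF-treated replicate B these values were −1.49 and −1.46 and passed. OSMR, the oncostatin M receptor, fell from 9.48 and 9.08 to 7.47 and 5.92 (log2 fold-change −2.58, adjusted p = 4.67e-05), with −1.80 without WHF-treated replicate B. CXCL8, another neutrophil chemokine, gave −0.48 and did not pass.

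In the other direction, CCL5, a chemokine of T cells, went from 9.92 and 9.28 to 12.70 and 11.14 (log2 fold-change 2.32, adjusted p = 0.000383), with 3.10 without WHF-treated replicate B and 1.53 without WHF-treated replicate A. IL1RN, the natural antagonist of interleukin-1, went from 9.45 and 9.59 to 11.43 and 11.22, with replicates within 0.3 (log2 fold-change 1.81, adjusted p = 2.32e-06). IL24, an interleukin-10 family cytokine, rose by 2.23 and 1.29 on its probes, the latter 0.82 and not passing without WHF-treated replicate A, and CSF1, the macrophage growth factor, was at least 6.26-fold higher on a probe silent in untreated cultures, while the brighter CSF1 probe gave 0.86 and did not pass. IL1B, named after its values were seen, rose by 1.84. Of 31 genes of the cytokine list detected on 4 arrays, 6 rose and 4 fell, and the median was 0.24. BCL3, a nuclear partner of NF-kB, rose by 1.66, STAT3, the transcription factor downstream of interleukin-6, by 1.02 on 1 of 3 probes (0.97 without untreated replicate A and 1.0 without WHF-treated replicate A, both under 2-fold), and PIM1, a kinase induced by it, by 1.54. CHI3L1, a secreted chitinase-like protein, fell from 11.40 and 11.70 to 8.68 and 9.75 (log2 fold-change −2.34, adjusted p = 0.000102), and SERPINB1, an inhibitor of neutrophil proteases, rose by 2.20 (adjusted p = 1.20e-06).

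Interferon-stimulated genes were lower in part. IFIT1, an RNA-binding antiviral protein, fell from 8.63 and 7.60 to 6.36 and 5.78, with 1 treated array below background (log2 fold-change −2.04, adjusted p = 0.00114), while its other kept probe gave 0.62 and did not pass. OAS1, a sensor of double-stranded RNA, fell by 1.07 to 1.55 on 3 probes and ISG20, an exonuclease, rose by 1.11. The OAS1 probe at −1.17 gave −0.93 without WHF-treated replicate B, ISG20 gave 0.78 without WHF-treated replicate A, and neither passed there. Of 32 genes detected on 4 arrays, 5 fell and 1 rose, and the median was −0.35. Between 2 and 8 fell when 1 of the 4 arrays was left out, with 2 without WHF-treated replicate B.

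Several feedback inhibitors of the ERK pathway, which cells make while the pathway is active, fell. SPRY4, an inhibitor of RAS signaling, went from 9.81 and 9.29 to 8.26 and 7.46 (log2 fold-change −1.69, standard error 0.30, adjusted p = 0.000737) on its brightest probe. Its other probes disagreed, as 1 fell by 1.03 and 1, detected only in treated cultures, gave 0.97 and did not pass. SPRED2, a related inhibitor, went from 8.26 and 8.12 to 6.63 and 5.51, with the last below background (log2 fold-change −2.12, adjusted p = 1.96e-05). CCN1, a secreted matricellular protein and YAP target, went from 11.81 and 11.30 to 9.68 and 8.35 (log2 fold-change −2.55, adjusted p = 0.000126), and by 1.88 without WHF-treated replicate B. PHLDA1, an ERK-induced gene, fell by 1.42 on its brighter probe, which gave −0.99 and did not pass without that array, and ERRFI1, an inhibitor of the EGF receptor from another list, by 1.76. Of 32 list genes detected on 4 arrays, 11 fell and 2 rose, and the median was −0.42 (−0.43 in the A pair, −0.39 in the B pair). Without WHF-treated replicate B, 4 fell, and without untreated replicate A, 6.

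The immediate early genes in this list rest on 1 array. FOS gave 12.66 and 12.07 in untreated cultures and 11.53 and 7.95 in treated ones, a response of −1.13 in replicate A and −4.12 in replicate B (log2 fold-change −2.62, adjusted p = 0.0350). Without WHF-treated replicate B the value was −0.83 and did not pass (adjusted p = 0.487). EGR1 and FOSB went the same way, with treated signals of 12.41 and 11.43 in replicate A against 8.53 and 5.13 in replicate B. Without that array EGR1 gave −0.39 and FOSB 0.04, and FOS did not pass without untreated replicate A either (−2.33). JUN gave 0.10, IER2 −0.61 and MYC −0.87, and none of these passed.

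Targets of TGF-beta fell in some members and rose in others. PMEPA1, a TGF-beta-induced inhibitor of its own pathway, went from 11.40 and 11.04 to 9.12 and 7.47 on 1 probe (log2 fold-change −2.93, adjusted p = 3.37e-05; −2.11 without WHF-treated replicate B) and fell by 2.58 on another. BMPR2, a receptor of bone morphogenetic proteins, was at least 1.96-fold lower, and SMAD3, a signal carrier of TGF-beta, rose by 1.23, but gave 0.90 and did not pass without WHF-treated replicate A. Of 19 list members detected on 4 arrays, 4 rose and 6 fell, and the median was −0.04. Of 16 YAP and TEAD targets, 3 rose and 5 fell, among them FJX1 at −2.34 and NUAK2, a kinase, at 1.70. THBS1, the matrix protein thrombospondin 1, fell by 2.08 and ADAMTS1, a matrix protease, by 2.61 (−1.99 without WHF-treated replicate B), whereas MMP28 rose by 2.45 and MMP9 by 1.41.

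IRS2 and PIK3R1, which relay insulin signals, fell, and of 12 genes of the insulin and growth factor list detected on 4 arrays 2 rose and 4 fell, at a median of −0.18. IRS2, an adaptor of the insulin receptor, went from 11.22 and 10.58 to 9.40 and 8.58 (log2 fold-change −1.91, adjusted p = 0.000248). PIK3R1, the regulatory subunit of PI3-kinase, went from 7.94 and 7.55 to signals not above background and was at least 3.89-fold lower (adjusted p = 8.14e-07). The groups lay more than 1 log2 unit apart in both genes. IGFBP6, a binding protein of insulin-like growth factors, rose by 1.47. TRIB3, a pseudokinase that binds AKT and belongs to the ATF4 stress list, fell by 1.89, and SLC38A2, a glutamine transporter of that list, by 2.14, or 1.52 without WHF-treated replicate B.

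Among genes with large falls, PRUNE2 went from 8.42 and 8.24 to 4.71 and 4.68, below background on both treated arrays, and was at least 5.84-fold lower (adjusted p = 4.38e-10). BDNF, a neurotrophin, was at least 5.96-fold lower and COL15A1, a basement membrane collagen, at least 3.61-fold. PDLIM3, an actin-associated LIM protein, went from 10.46 and 10.39 to 7.67 and 7.79, so its replicates agreed within 0.2 (log2 fold-change −2.69, adjusted p = 7.82e-07). XDH, the xanthine dehydrogenase of purine breakdown, went from 8.94 and 8.78 to 6.12 and 6.30 (log2 fold-change −2.65, adjusted p = 8.18e-06). SLC22A15, a solute carrier, fell by 2.95, and MPHOSPH8, a reader of methylated histone H3, by 2.90. ARID5B, TNFRSF11B and FOXQ1 fell by 3.08, 2.78 and 2.66, and these values were −1.93, −1.58 and −1.68 without WHF-treated replicate B, still past the threshold. CLDN1, a tight junction claudin, fell from 12.66 and 12.30 to 10.93 and 9.34 (log2 fold-change −2.34, adjusted p = 0.000677), and by 1.55 without that array.

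CDCP1, the transmembrane substrate of SRC kinases that the study went on to examine, had 4 kept probes, which disagreed. Probe ILMN_1708167 gave 7.22 and 7.49 in untreated and 9.93 and 10.66 in treated cultures (log2 fold-change 2.95, standard error 0.29, adjusted p = 4.45e-06). Probe ILMN_1724941 moved the other way, from 10.12 and 9.64 to 8.35 and 7.65 (log2 fold-change −1.88, standard error 0.26, adjusted p = 0.000100). The other probes gave 0.44 and 0.41 and did not pass (adjusted p = 0.328 and 0.351). Both calls held when any 1 of the 4 arrays was left out. The study's methods took ILMN_1708167 for the gene, as the best-performing probe. The target transcript of each probe is not given in the sources used here. Of the nectin family, to which PVR, the poliovirus receptor, belongs, PVR rose by 2.19, NECTIN4 by 1.38 and NECTIN2 by 1.14 on 1 probe each, and the brighter probes of PVR and NECTIN2 gave 0.60 and 0.97 and did not pass. The called NECTIN2 probe gave 0.92 without WHF-treated replicate A and did not pass there.

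**Figure D4:**
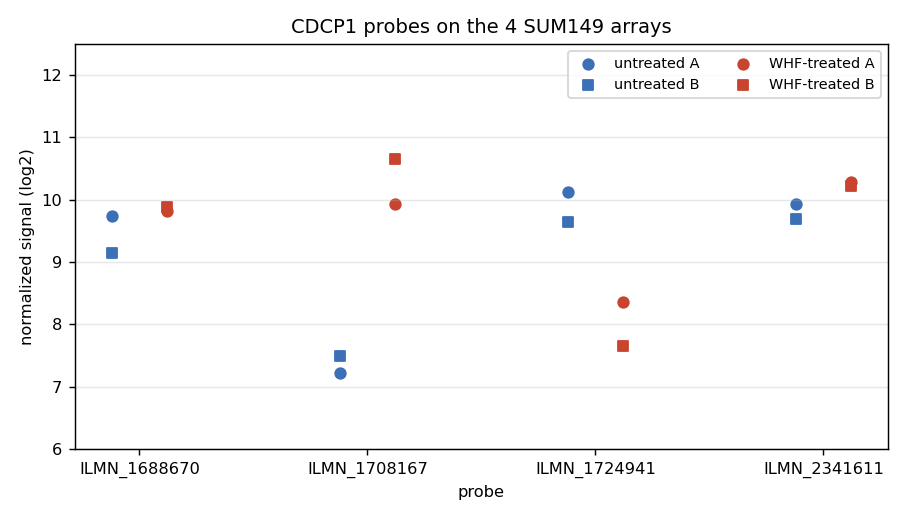
Normalized log2 signals (y axis) of the 4 CDCP1 probes (x axis) on the 4 SUM149 arrays, blue for untreated and red for WHF-treated cultures. The red points lie above the blue ones for ILMN_1708167, below them for ILMN_1724941 and within 1 log2 unit of them for the other probes.

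The response of SUM149 was tested against the mean response of the other 4 lines, MDA-MB-231, BT549, MDA-MB-157 and MDA-MB-468, each with 2 treated and 2 untreated arrays. It was higher in 959 probes and lower in 1178, which is 4.63% and 5.69% of those tested. Among the 10114 genes detected on 4 arrays, 416 responded higher and 470 lower, the background for the list counts below. CRABP2 had the largest positive difference among named genes detected on 4 arrays, at 3.10 in SUM149 against −0.03 in MDA-MB-231, 0.17 in MDA-MB-468, −1.55 in BT549 and −0.87 in MDA-MB-157 (difference 3.67 log2 units, adjusted p = 4.89e-06). STRA6 differed by 3.20 (adjusted p = 7.70e-05), although it also gave 2.26 in MDA-MB-468, and was detected on 0 arrays of the 3 mesenchymal-like lines. HMOX1 differed by 2.94, with 1.36 in MDA-MB-231 and 1.0 in MDA-MB-468, and KRT16 by 3.01 and RHCG by 2.95, both within 0.8 of 0 in every other line. RHCG was detected on none of the 16 other arrays, so its values there are background. MDA-MB-468, the other basal-like line, was scanned on the same chip, and against it alone CRABP2, STRA6, HMOX1, RHCG and KRT16 still differed, by 2.93, 1.59, 2.62, 2.95 and 3.46 (adjusted p = 0.000278, 0.0393, 0.000958, 0.00119 and 0.00133).

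Mitotic genes differed in the same sense. KIF2C gave 1.44 in SUM149, −0.21 in MDA-MB-231, −0.79 in MDA-MB-468, 0.26 in BT549 and −0.50 in MDA-MB-157 (difference 1.75, adjusted p = 1.41e-05). CDK1 differed by 1.65 (adjusted p = 0.000117). Of the 39 G2/M genes, 25 responded higher in SUM149 than in the other lines and none lower, and the median of the mean response of the other lines was −0.45 against 0.81 in SUM149. For G1/S and DNA replication, 6 of 30 were higher and none lower. Of 12 squamous genes detected on 4 arrays of SUM149, 7 were higher. Genes were kept by detection in SUM149 alone, so values in the other lines can be background, as for RHCG. The filter in part set this count. No difference was called for any of the 17 cholesterol synthesis genes, whose median was −1.04 in the other lines against −0.92 in SUM149.

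Of 31 genes of the cytokine list, 4 responded higher in SUM149 than in the other lines and 8 lower, and of 31 of the NF-kB list 2 and 8. These lists share members, IL6 and CXCL2 among them, so their counts are not separate. IL6, CXCL2, PTGS2 and CHI3L1 were among the lowest differences, by which they were named. IL6 fell by 2.38 in SUM149 and gave 0.16 in MDA-MB-231, −0.37 in MDA-MB-468, 2.98 in BT549 and 2.59 in MDA-MB-157 (difference −3.71, adjusted p = 0.000160). CXCL2 gave −1.02, 0.08, 2.33 and 3.27 in these lines (difference −3.30), PTGS2 1.43, −0.13, 3.36 and 0.82 (difference −3.34), and CHI3L1 0.52, 2.01, 1.79 and −0.14 (difference −3.38). GDF15, a stress cytokine of the TGF-beta family, was a different case, since it gave 6.39 and 6.23 in untreated and 6.13 and 6.45 in treated SUM149 cultures, a log2 fold-change of −0.02, and 2.41, 4.49, 2.70 and 3.27 in the other lines (difference −3.23, adjusted p = 3.05e-05). Of 32 ERK feedback and early genes, 11 responded lower in SUM149 than in the others and 1 higher, with a median of 0.24 in the other lines against −0.42. SPRY4 fell by 1.69 in SUM149 against values of 0.37 to 0.94 in the other lines, and PHLDA1 by 1.42 against values of 0.42 to 1.71. The metallothionein and zinc list had a median of −0.02 in SUM149 and of 1.25 in the other lines, with 3 of 9 genes lower in SUM149 by the test.

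**Figure D5:**
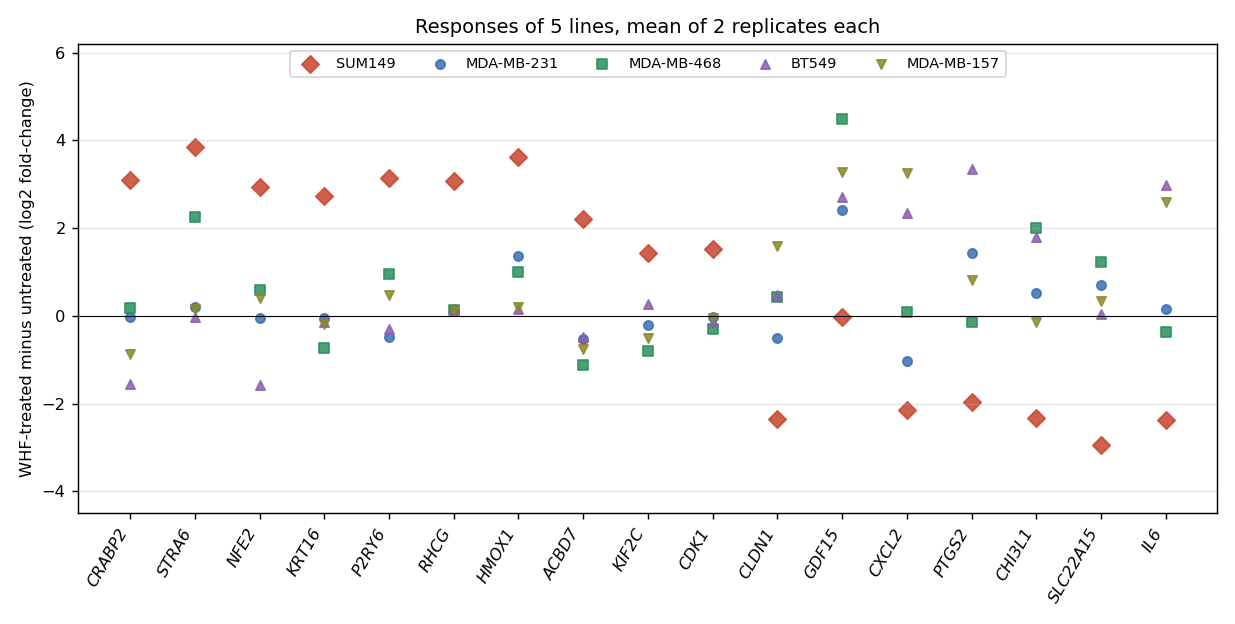
Log2 fold-changes (WHF-treated minus untreated, mean of 2 replicates, y axis) of 17 genes in the 5 cell lines, with SUM149 as red diamonds. SUM149 lies above every other line for CRABP2 to CDK1 and below every other line for CLDN1 to IL6.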

How the data were processed

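RNA from 4 SUM149 arrays, among 20 arrays of 5 lines, was measured on an Illumina HumanHT-12 beadchip. The authors extracted signals with BeadStudio and deposited, per probe, an average bead signal, an intensity with no normalization or background correction, and a detection p-value. They also deposited intensities that the authors quantile normalized over the 20 arrays, which were used as an alternative (rank correlation with the bead signal of 1 on every array). In the supplied annotation 30112 probes have 1 gene symbol, 8 several and 17199 none. The methods name another version of the array than the annotation does.

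Bead signals were corrected with the normexp model of limma (version 3.58.1, R 4.3.3), with detection p-values and an offset of 16, quantile normalized over 20 arrays and taken to log2. A linear model in limma held the 20 arrays as 10 groups of 2 replicate arrays. Treated and untreated arrays of the same letter were not paired in it. Benjamini-Hochberg adjustment was over 20702 probes, and calls were made at a false discovery rate of 0.1 and more than 2-fold, the thresholds of the methods. The difference between lines was a contrast of the same fit. The script was tested on simulated data. Gene lists were described by counts and medians over 1 probe per gene. Genes were named by rule: the 15 highest and lowest changes detected on 4 arrays, 5 each way detected on 1 side, up to 4 members of each of 44 lists, the markers of this line, CDCP1, and the 8 highest and lowest differences from the other lines. Other genes cited from the lists, and the 5 shown with sequence, were chosen after their values were seen. The members and lists were chosen with earlier results of these data known.

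All 4 SUM149 arrays were on 1 chip. Bead arrays give no counts, so precision rests on the number of arrays. Replicate letters were taken as separate preparations, and deviations of same-lettered SUM149 arrays from their group means correlated at 0.20 across probes. Alternatives changed the background correction, scaling, source, filter, fit, pairing and arrays in use.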

Additional observations from a re-analysis of the deposited data

Results flagged for a closer look

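The response of SUM149 differed from the mean response of the other 4 lines, by a test of the difference itself, in 959 probes that were higher and 1178 that were lower. No group held enough arrays for a check of outlying samples. Among the named genes the differences, in log2 units, were 3.67 for CRABP2, 3.20 for STRA6, 3.10 for NFE2, 3.01 for KRT16, 2.97 for P2RY6, 2.95 for RHCG, 2.94 for HMOX1, 2.93 for ACBD7 and 2.71 for FAM43A. They were −3.71 for IL6, −3.53 for SLC22A15, −3.38 for CHI3L1, −3.34 and −3.23 for the 2 probes of PTGS2, −3.30 for CXCL2, −3.23 for GDF15, −2.84 for CLDN1 and −2.25 for PDE7B. SLC22A15 gave values of 0.05 to 1.23 in the other lines. ACBD7, an acyl-CoA binding protein, rose by 2.20 in SUM149 and gave −1.11 to −0.49 elsewhere.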

How the results depend on the processing

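Counts depended on the background step, the filter, the scaling and WHF-treated replicate B. With no background correction, 461 probes rose and 582 fell, and 418 and 393 differed from the other lines. From the authors' intensities these were 461, 583, 418 and 393. With median scaling 679 rose. With probes detected on all 4 SUM149 arrays 835 fell, and with probes detected on all 20 arrays 380 and 457 differed, since fewer probes were tested. With no fold minimum 3667 rose and 4240 fell. A fit on the 4 SUM149 arrays alone, without the spread of the other lines, called 910 higher and 1229 lower. With more than 2-fold in each replicate pair as well, chosen after seeing the data, probes called higher in SUM149 numbered 660 and probes called lower in SUM149 854. Leaving out 1 array gave 929 to 1532 probes that rose and 1132 to 2267 that fell, and 950 to 1287 higher and 917 to 1904 lower against the other lines. Without WHF-treated replicate A 1904 were lower, and without replicate B 1132 fell. The fit with the replicate block called 1067 and 1542 probes, and 974 and 1193 against the other lines, and it changed the call of none of the 176 named probes. Of 172 called named probes, 53 lost the call in at least 1 of 14 alternatives, 45 of them with no background correction. GDF15, which was not called, turned direction to 0.14 without WHF-treated replicate A and 0.06 without untreated replicate A, and leaving out 1 array gave −0.18 to 0.14. Causes were not tested. Of 44 list medians, 34 moved by more than their replicate spread in some alternative.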

Other observations

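Gene groups that the results did not describe gave further values in SUM149. Of 63 cytosolic ribosomal protein genes detected on 4 arrays, none was called, and the median was 0.02. Of 13 HLA class I and antigen presentation genes none was called, at a median of 0.18, and of 21 lysosome and autophagy genes none was called, at −0.14. Of 28 hypoxia and glycolysis genes, 1 fell, ANKRD37 by 1.93, and of 19 heat shock genes 1 fell, HSPA8 by 1.14 and 1.02 on its probes, which gave −0.98 and −0.82 and did not pass without WHF-treated replicate A. TWIST1 and TWIST2, factors of the mesenchymal transition, rose by 1.59 and 1.55, while the epithelial gene CDH1 gave 0.36 and did not pass. NRP2, a neuropilin, rose by 1.36 to 2.41 on 3 of 4 probes, while its relative NRP1 fell by 2.23 on 1 probe, or 1.27 without WHF-treated replicate B, and gave 0.67 on the other. Of 283 probes for zinc finger genes named ZNF, picked after their values were seen, 28 fell and 7 rose. Of all 17098 kept probes detected on 4 arrays, 835 fell and 759 rose. The ZNF median response was −0.02 in the A pair against −0.25 in the B pair, and fewer fell without WHF-treated replicate B.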
